A study of Mus musculus with 16 samples.

Results

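The proteasome genes described here are the 50 genes of the count table, of 52636 in all, whose mouse symbol is Psm followed by a letter from a to g and a number, with 4 pseudogenes left out. Of these, 5 genes make up the immune set (*Psmb8*, *Psmb9*, *Psmb10*, *Psme1* and *Psme2*), and the 45 others were compared with them over the 4 conditions. Of the 50 genes, 49 passed the filter on low counts that was applied to the whole table, and *Psma8*, a testis form of an alpha subunit with 0 to 3 counts in a library, did not. *Psmc3ip* fits the symbol pattern but is a meiotic recombination factor and no proteasome subunit, and it was kept and reported apart. RNA sequencing was done on pancreatic islets of male C57BL/6JRj mice aged 12 weeks, cultured for 10 days without additions (control), with IL-1β at 50 pg/mL, with butyrate at 0.2 mM, or with IL-1β and butyrate together. IL-1β is an inflammatory cytokine and butyrate a fatty acid from the gut microbiota that also inhibits histone deacetylases. Each condition had 4 libraries from independent experiments, each made of 500 islets from a pool of animals, so that a replicate is an experiment and not an animal. The strain is that of the labels, while the study's methods name C57BL/6NRj. Islets hold beta, alpha and delta cells together with resident macrophages and some vascular cells.

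The 20S proteasome is a barrel of alpha rings, which gate the entry, and beta rings, of which the subunits *Psmb5*, *Psmb6* and *Psmb7* carry the chymotrypsin-like, caspase-like and trypsin-like activities. In cells exposed to inflammatory cytokines, newly made barrels take up *Psmb8*, *Psmb9* and *Psmb10* in place of *Psmb5*, *Psmb6* and *Psmb7*, which gives the immunoproteasome with a changed cleavage preference. The 19S cap (Psmc ATPases and Psmd subunits) recognises and unfolds proteins marked with ubiquitin, whereas the PA28 activator made of *Psme1* and *Psme2* opens the barrel without ATP. In beta cells the immunoproteasome is known to be inducible by inflammatory cytokines, and proteasome products feed the loading of MHC class I molecules.

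The immune genes sit at 3 places in the genome (GRCm38, positions from GENCODE M21). *Psmb9* (chr17:34181987-34187764, minus strand) and *Psmb8* (chr17:34197721-34201454, plus strand) lie in the MHC with 9956 bases between them, and *Tap1* stands between them. *Psme1* (chr14:55578123-55581529, plus strand) and *Psme2* (chr14:55587441-55591113, minus strand) are 5911 bases apart, and *Psmb10* (chr8:105935735-105938444, minus strand) stands alone. Exons of *Psmb9* share 212 bases with *Tap1* on the opposite strand, 5.8% of their length, and the strand setting of the counting was not given in the sources used here. Exons of *Psmb8* share 14.7% of their length with an antisense transcript, *Gm20496*, which had at most 6 counts in a library.

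Since the immune genes moved together across the conditions, the stretches before their starts were read from RefSeq (GRCm38.p6), which held a window for 42 of the 50 genes. Only the first window listed for a symbol was used, which gave windows of 27025 genes out of 32851 windows, so that other starts of a gene were not searched. The 250 bases before the start were searched on both strands for 6 short motifs, and annotated untranslated exons were left out of what is printed, which left nothing of the windows of *Psmb8* and *Psmb9*, so that for *Psmb8* a short site alone is shown and for *Psmb9* no sequence. The window of *Psmb8* precedes a RefSeq start at chr17:34198195, 474 bases inside the GENCODE gene given above, so that its site lies within that gene. The stretch left for *Psme1* is not printed. Capitals mark the motifs that were found, written 5′ to 3′ on the strand of the gene.
*Psmb8*, 29 bases around a STAT-type element (chr17:34198088-34198116, plus strand): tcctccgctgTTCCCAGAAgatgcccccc
*Psmb10*, with none of the motifs (chr8:105938445-105938642, minus strand): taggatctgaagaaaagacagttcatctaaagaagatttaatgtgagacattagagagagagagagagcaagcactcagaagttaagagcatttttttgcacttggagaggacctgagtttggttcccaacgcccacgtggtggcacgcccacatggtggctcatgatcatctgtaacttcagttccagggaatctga
*Psme2*, with a GC box (chr14:55591114-55591351, minus strand): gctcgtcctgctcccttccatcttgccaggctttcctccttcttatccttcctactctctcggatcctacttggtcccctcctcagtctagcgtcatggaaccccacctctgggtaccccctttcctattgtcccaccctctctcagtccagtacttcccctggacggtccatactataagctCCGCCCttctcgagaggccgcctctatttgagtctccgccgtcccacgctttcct
*Psmb5*, the constitutive counterpart of *Psmb8*, with a kappa B-like site (chr14:54618023-54618245, minus strand): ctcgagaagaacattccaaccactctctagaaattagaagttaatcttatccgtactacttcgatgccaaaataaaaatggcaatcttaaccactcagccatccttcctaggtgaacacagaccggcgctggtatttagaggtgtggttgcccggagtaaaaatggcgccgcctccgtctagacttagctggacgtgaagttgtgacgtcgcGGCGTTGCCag

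The STAT-type pattern TTCNNNGAA was found in 2 of the 42 windows, those of *Psmb8* and *Psmg1*, and in 7.18% of the windows of all 27025 genes. The core of the IRF element, GAAANNGAA, was in 3 windows (*Psmb3*, *Psmd4* and *Psmd9*, none of them immune) and in 7.16% of all windows. The kappa B-like pattern GGNNTTNCC was in 4 windows (*Psma1*, *Psmb5*, *Psme4* and *Psmf1*) and in 13.3% of all. The GC box GGGCGG was in 52.4% of the 42 windows and in 32.9% of all, CCAAT was in 35.7% and 34.5%, and TGACTCAGC was in 0 windows of these genes and in 0.363% of all. There was 1 overlap between matches of different motifs in the 42 windows. These matches describe letters in a window and no measured binding.

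A library held 18635943 to 25955943 counts. Markers of islets were in place, with 8 beta cell genes that summed to 213000 to 236000 CPM (counts scaled to a common library size) in control libraries, 3 alpha cell genes to 19800 to 22900 and 5 acinar genes to 18.1 to 29.0. Values below are CPM after TMM scaling, fold changes are on the log2 scale ± SE from 1 edgeR quasi-likelihood fit of all 16 libraries, and calls were made at an FDR (p adjusted by Benjamini-Hochberg over the 18587 genes tested) under 0.01. The immune set was named with earlier results of these libraries known, so that its shared direction is not independent evidence.

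IL-1β raised all 5 immune genes, by 1.56-fold to 2.60-fold, and none of the 44 other genes tested was called in the fit given here. Over all genes tested, 11.2% were raised and 6.59% were lowered by IL-1β, and the median log2 fold change was 0.96 for the immune set, 0.07 for the other proteasome genes and -0.03 for all genes tested. *Psmb8*, the counterpart of *Psmb5*, stood at 8.21, 6.42, 7.17 and 6.93 CPM in control replicates 1 to 4 and at 16.7, 21.2, 18.3 and 17.9 CPM with IL-1β (log2 fold change 1.37 ± 0.088, FDR 1.8e-12). *Psmb9*, which replaces *Psmb6*, went from 6.63, 5.17, 4.92 and 5.99 CPM to 10.2, 11.4, 11.6 and 11 CPM (0.96 ± 0.095, FDR 7e-09). *Psmb10*, which replaces *Psmb7*, had 14.3, 13.3, 12.5 and 12.9 CPM in control islets and 36.1, 38.8, 30.8 and 32.4 CPM with IL-1β (1.38 ± 0.075, FDR 4.9e-14). For each of these catalytic subunits every IL-1β library lay above every control library.

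The rises of the PA28 subunits were smaller in size, a difference between genes that was not tested. *Psme1* had 31.2, 30.5, 29.4 and 27.0 CPM in control islets and 53.6, 53.0, 47.2 and 49.3 CPM with IL-1β (0.78 ± 0.057, FDR 1.7e-11). *Psme2* had 49.9, 51.9, 43.7 and 47.2 CPM against 76.7, 84.7, 72.4 and 68.1 CPM (0.64 ± 0.057, FDR 9.2e-10). Again no control library reached the lowest IL-1β library. The 5 rises were called when any of the 16 libraries was left out, under each other scaling, and by DESeq2.

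**Figure D1:**
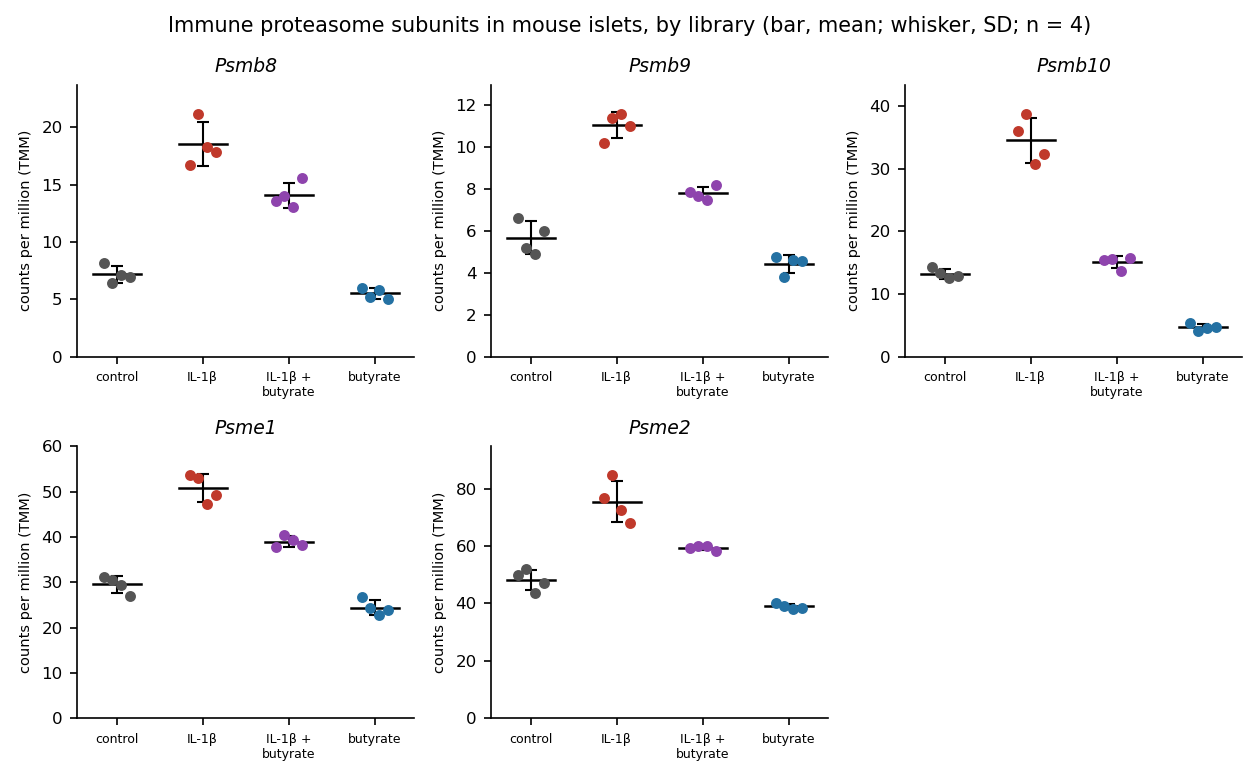
CPM after TMM scaling (vertical axis) of the 5 immune genes in each of the 16 libraries, by condition (horizontal axis), where a point is a library, the bar the mean and the whisker the SD over 4 libraries. All IL-1β libraries stand above all control libraries, the libraries with IL-1β and butyrate lie between them for *Psmb8*, *Psmb9*, *Psme1* and *Psme2*, and *Psmb10* falls to between 4.09 and 5.42 CPM with butyrate alone.

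Butyrate lowered all 5 immune genes in the presence of IL-1β, where 11.1% of all genes tested were lowered and 8.41% raised. *Psmb10* had 15.5, 15.6, 13.7 and 15.7 CPM with IL-1β and butyrate, a 2.28-fold lower level than with IL-1β alone (log2 fold change -1.19 ± 0.074, FDR 3.2e-12). *Psmb9* had 7.88, 7.68, 7.49 and 8.19 CPM (-0.50 ± 0.091, FDR 0.00011), and *Psmb8* had 13.6, 14, 13.1 and 15.6 CPM (-0.40 ± 0.081, FDR 0.00049). The fitted fall was largest for *Psmb10* among the catalytic subunits and smallest for *Psmb8*. *Psme1* had 37.7, 40.5, 39.3 and 38.3 CPM (-0.38 ± 0.055, FDR 6.3e-06), and *Psme2* had 59.3, 59.9, 60.1 and 58.4 CPM (-0.34 ± 0.056, FDR 3.4e-05). For each of the 5 genes the libraries with IL-1β and butyrate lay below all libraries with IL-1β alone, and no alternative ended a call.

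Against control islets, the islets exposed to IL-1β and butyrate kept raised levels of 4 immune genes, in a comparison where 15.8% of all genes tested were raised and 14.8% lowered. *Psmb8* remained 1.96-fold higher (0.97 ± 0.090, FDR 1.3e-09) and *Psmb9* 1.37-fold higher (0.46 ± 0.10, FDR 0.00037). *Psme1* was 1.32-fold higher (0.40 ± 0.057, FDR 2.1e-06) and *Psme2* 1.23-fold higher (0.30 ± 0.057, FDR 0.0001). *Psmb10* differed by 0.19 ± 0.080 and was not called (FDR 0.062), with 1 control library at 14.3 CPM above the lowest combined library at 13.7 CPM. Scaling by library size alone gave 0.26 for *Psmb10* and a call (FDR 0.0064), and the FDR reached 0.16 under the other alternatives. These comparisons share libraries with those above, and their values are set side by side only.

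Butyrate alone lowered *Psmb10* by the largest factor among the immune genes, 2.81-fold, from the control levels given above to 5.42, 4.09, 4.60 and 4.82 CPM (-1.49 ± 0.10, FDR 5.3e-12). Among all genes tested, 11.4% were lowered and 8.53% raised by butyrate. *Psme2* was at 40.0, 39.3, 38.2 and 38.4 CPM (-0.31 ± 0.059, FDR 0.00023) and *Psme1* at 26.7, 24.3, 22.8 and 23.8 CPM (-0.27 ± 0.060, FDR 0.00088). Both PA28 genes were below all control libraries. *Psmb8* was at 5.98, 5.24, 5.85 and 5.03 CPM (-0.38 ± 0.10, FDR 0.0056). *Psmb9* was at 4.77, 3.82, 4.60 and 4.56 CPM (-0.36 ± 0.11) and missed the threshold with an FDR of 0.011. The levels of these MHC-encoded genes also lay below all control libraries, but their calls depended on the setting. For *Psmb8* the call was lost without control replicate 1 (FDR 0.030), control replicate 3 (0.012), butyrate replicate 2 (0.021) or butyrate replicate 4 (0.026), and with upper-quartile scaling (0.018), over a range of 0.0012 to 0.030 for all alternatives. *Psmb9* was called in 5 of 23 alternatives, which were leaving out control replicate 2 (FDR 0.0094) or control replicate 3 (0.0057), scaling by library size alone (0.0095), the replicate number as a block (0.0076) and the threshold of 0.05, and its FDR ranged up to 0.063.

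IL-1β added to butyrate raised all 5 immune genes, with 9.92% of all genes tested raised and 4.86% lowered between islets with IL-1β and butyrate and islets with butyrate alone. The rise was 3.20-fold for *Psmb10* (1.68 ± 0.094, FDR 8.9e-14) and 2.56-fold for *Psmb8* (1.35 ± 0.095, FDR 1.1e-11). *Psmb9* rose 1.76-fold (0.82 ± 0.10, FDR 5.4e-07), *Psme1* 1.60-fold (0.67 ± 0.059, FDR 7.8e-10) and *Psme2* 1.53-fold (0.61 ± 0.059, FDR 5.3e-09). IL-1β therefore raised these genes with and without butyrate in the medium.

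Whether butyrate acted differently with and without IL-1β was asked by the difference between its effects. In edgeR none of the 5 immune genes and none of the 44 others was called, where 0.043% of all genes tested were called for a higher and 0.0538% for a lower difference. Of all 18587 genes tested, 1362 had an unadjusted p under 0.05 for this difference. DESeq2 called 0 of the 49 genes, and the unadjusted p was under 0.05 for 1 immune gene and 0 of the others. That gene was *Psmb10*, whose fall was smaller by 0.30 ± 0.12 with IL-1β (unadjusted p 0.022 and FDR 0.54 in edgeR). The differences were -0.02 ± 0.13 for *Psmb8* and -0.14 ± 0.14 for *Psmb9*, and -0.11 ± 0.082 and -0.04 ± 0.082 for *Psme1* and *Psme2*. A p above the threshold does not show that the effects were equal.

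Markers of macrophages and other leukocytes, which express the immune subunits strongly, moved with the cytokine as well. Of 16 such genes, IL-1β raised 15, or 93.8% against 11.2% of all genes tested, and lowered *C1qa* (median log2 fold change 2.18). Butyrate lowered 9 in the presence of IL-1β, or 56.2% against 11.1% (median -0.79). Butyrate alone lowered *C1qa* only, 6.25% where 11.4% of all genes were lowered (median -0.52). With IL-1β and butyrate against control, 12 were raised, or 75% against 15.8%, and *C1qa* was lowered (median 1.26). Their summed level was 142 to 154 CPM in control libraries, 220 to 290 with IL-1β, 117 to 171 with IL-1β and butyrate and 94.4 to 113 with butyrate. Most of the control sum was *C1qa*, at 99.6 to 124 CPM, and without it, a choice made after its values were seen, the other 15 genes summed to 29.3 to 42.6 CPM in control libraries, 129 to 222 with IL-1β, 58.9 to 126 with IL-1β and butyrate and 21.4 to 33.0 with butyrate. None of the 16 genes was at 0 in all libraries. With IL-1β alone, the sum of all 16 markers was 220, 256, 245 and 290 CPM in replicates 1 to 4. Of this, *C1qa* gave 91.0, 88.5, 71.6 and 67.6 CPM. The sum of the 5 immune genes was 193, 209, 180 and 179 CPM. The 31 constitutive genes of the 20S core and the 19S cap summed to 2780, 2860, 2520 and 2430 CPM in the same libraries. With IL-1β and butyrate, the sum of the 16 markers was 117, 128, 164 and 171 CPM in replicates 1 to 4. Of this, *C1qa* gave 58.2, 49.4, 52.0 and 45.0 CPM. The immune sum was 134, 138, 134 and 136 CPM. T and NK cell genes summed to 1.81 to 4.13 CPM over all libraries, and none of the 3 that passed the filter was called. The part of the leukocyte genes in the immune subunit result was not tested, and in these bulk libraries fewer cells of a type and less RNA per cell cannot be told apart.

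None of the constitutive counterparts of the immune catalytic subunits was called with IL-1β, although scaling by library size alone called *Psmb7* (0.20, FDR 0.0094). *Psmb5* had 29.3, 31.1, 30.4 and 29.1 CPM in control islets, 30.0, 37.5, 28.4 and 30.2 with IL-1β, 30.5, 30.3, 30.9 and 26.7 with IL-1β and butyrate, and 27.2, 24.8, 25.8 and 25.9 with butyrate. The butyrate libraries were below the control libraries, but the difference of -0.21 ± 0.069 was not called (FDR 0.021), and with IL-1β it was 0.07 ± 0.067 (FDR 0.49). The fall by butyrate was called in 5 of 23 alternatives (lowest FDR 0.0035), and the difference of 0.19 on adding IL-1β to butyrate (FDR 0.043) was called in 4 (lowest 0.0013). *Psmb6* had 75.5, 82.4, 73.8 and 75.6 CPM in control islets, 83.2, 88.0, 77.1 and 73.9 with IL-1β, 73.0, 74.7, 72.6 and 72.1 with IL-1β and butyrate, and 74.9, 70.5, 77.3 and 68.5 with butyrate. Control and IL-1β libraries overlapped (0.07 ± 0.053, FDR 0.39), and the fall by butyrate in the presence of IL-1β (-0.14 ± 0.053) was not called (FDR 0.048) but passed without IL-1β replicate 4 (FDR 0.0066) and at the looser threshold of 0.05. *Psmb7* had 43.9, 49.9, 43.7 and 42.0 CPM in control islets, 49.6, 55.6, 47.1 and 45.7 with IL-1β, 40.0, 47.4, 39.7 and 40.9 with IL-1β and butyrate, and 42.6, 40.3, 43.2 and 38.5 with butyrate. Its fall by butyrate in the presence of IL-1β passed the threshold (-0.24 ± 0.067, FDR 0.0085), with overlapping groups, and in the fit given here no other change of the 3 counterparts was called. That call was lost with upper-quartile scaling and without any of control replicate 3 (FDR 0.010), IL-1β replicate 1 (0.012) or 2 (0.041), combined replicate 1 (0.021), 3 (0.022) or 4 (0.017), or butyrate replicate 2 (0.011), and over all alternatives its FDR was 0.00014 to 0.041.

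**Figure D2:**
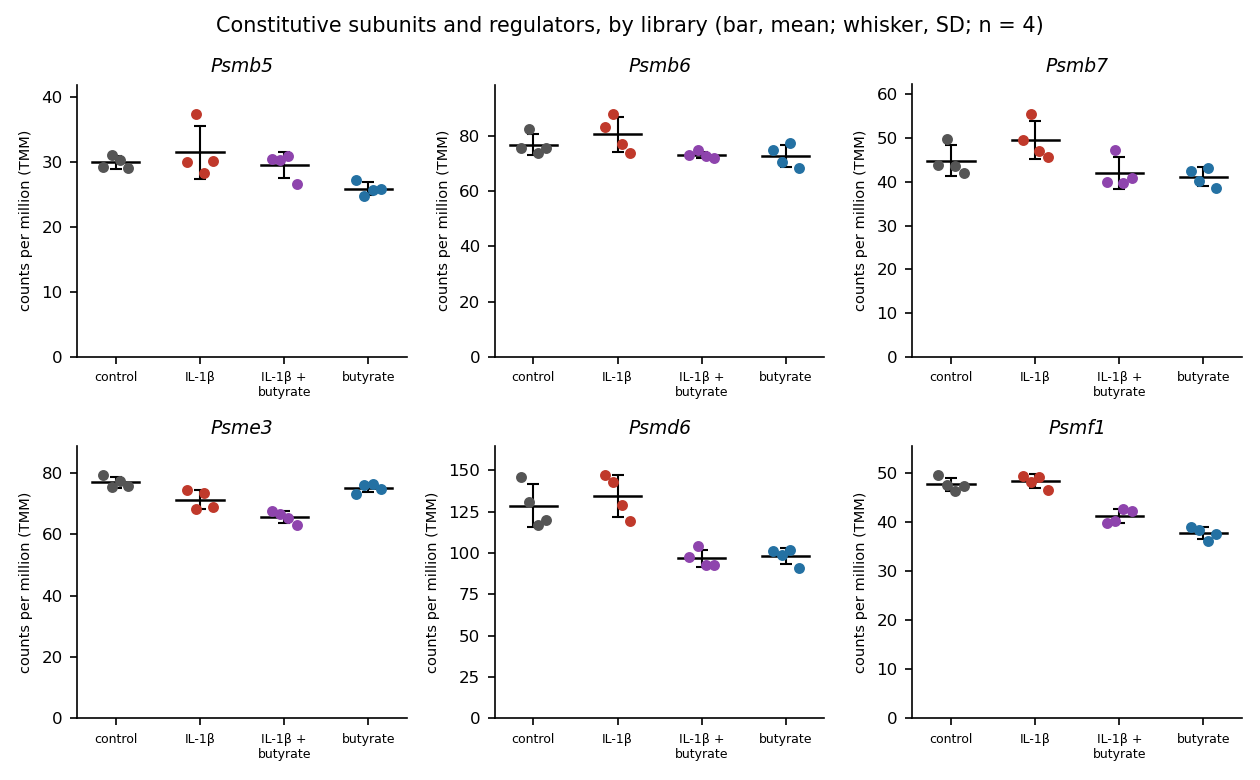
CPM after TMM scaling (vertical axis) of the catalytic counterparts *Psmb5*, *Psmb6* and *Psmb7*, the activator *Psme3*, the 19S subunit *Psmd6* and the inhibitor *Psmf1* in each of the 16 libraries, by condition (horizontal axis), with points for libraries, bars for means and whiskers for SD. *Psmb5*, *Psmb6* and *Psmb7* overlap between control and IL-1β, whereas *Psmd6* and *Psmf1* are lower in both conditions with butyrate.

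Levels were set against each other per kilobase of exon. In control islets the mean was 2.12 CPM per kb for *Psmb8*, 1.55 for *Psmb9* and 7.77 for *Psmb10*, against 33.4 for *Psmb5*, 41.0 for *Psmb6* and 13.1 for *Psmb7*, and 13.4 for *Psme1* and 27.3 for *Psme2*. The ratio of *Psmb8* to *Psmb5*, as log2 of CPM per kb, was -3.98 ± 0.18 (SD, n = 4) in control islets, -2.67 ± 0.10 with IL-1β, -2.98 ± 0.21 with IL-1β and butyrate and -4.14 ± 0.10 with butyrate. The ratio of *Psmb9* to *Psmb6* was -4.73 ± 0.22, -3.83 ± 0.15, -4.19 ± 0.07 and -5.01 ± 0.13 in the same order. For these pairs the constitutive gene stayed the more abundant in every condition, per kilobase of exon and per kilobase of coding sequence. The size of the gap depends on the length used. By coding sequence, *Psmb8* to *Psmb5* was at -2.13 ± 0.18 in control islets and -0.83 ± 0.10 with IL-1β. *Psmb9* to *Psmb6* was at -3.69 ± 0.22 and -2.78 ± 0.15. The ratio of *Psmb10* to *Psmb7* was -0.75 ± 0.13 in control islets, 0.48 ± 0.07 with IL-1β, -0.47 ± 0.12 with IL-1β and butyrate and -2.12 ± 0.16 with butyrate, so that *Psmb10* exceeded *Psmb7* with IL-1β only. That order depends on the length used, since per kilobase of coding sequence the ratio with IL-1β was -0.50 ± 0.07, below 0. The step from control to IL-1β was 1.30 for *Psmb8* to *Psmb5*, 0.90 for *Psmb9* to *Psmb6* and 1.24 for *Psmb10* to *Psmb7*, with no overlap between the libraries. The step from IL-1β to IL-1β and butyrate was -0.31 for *Psmb8* to *Psmb5*, with overlapping libraries, and -0.36 for *Psmb9* to *Psmb6* and -0.95 for *Psmb10* to *Psmb7*, without overlap. The ratios were not tested.

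**Figure D3:**
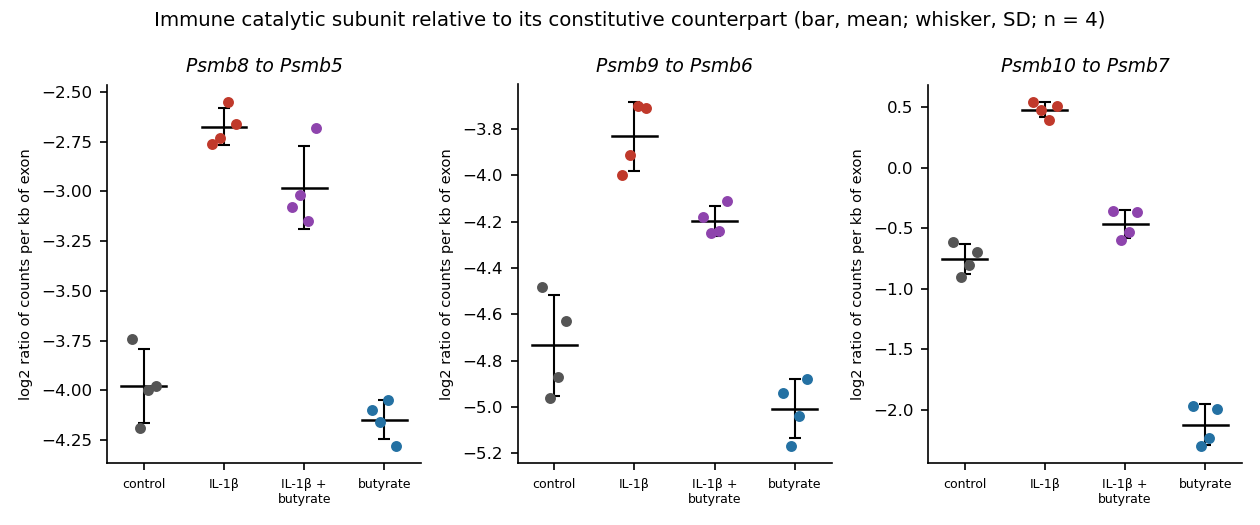
Log2 ratio of CPM per kilobase of exon (vertical axis) for each immune catalytic subunit over its constitutive counterpart in the 16 libraries, by condition (horizontal axis), with points for libraries, bars for means and whiskers for SD over 4 libraries. The ratio of *Psmb10* to *Psmb7* moves furthest, from -2.12 with butyrate to 0.48 with IL-1β.

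None of the other activators or the inhibitor was raised by IL-1β. *Psme3*, which forms the nuclear PA28γ activator, had 79.2, 75.3, 77.4 and 75.8 CPM in control islets, 74.4, 68.2, 73.5 and 68.9 with IL-1β, 67.4, 66.5, 65.3 and 62.9 with IL-1β and butyrate, and 73.2, 76.0, 76.4 and 74.7 with butyrate. It was lowered with IL-1β and butyrate against control (-0.23 ± 0.043, FDR 8.5e-05) and against butyrate (-0.20 ± 0.043, FDR 0.0012), while IL-1β alone gave -0.11 ± 0.043 (FDR 0.057). The call against butyrate was lost with scaling by library size alone (-0.10, FDR 0.084) and without the filter on low counts (FDR 0.019), with 4.7e-05 as the lowest FDR of the alternatives. *Psme4*, which encodes the activator PA200, was lowered by butyrate alone (-0.21 ± 0.051, FDR 0.0028) and in the presence of IL-1β (-0.18 ± 0.051, FDR 0.0073). *Psmf1*, which encodes the inhibitor PI31, had 49.6, 47.5, 46.3 and 47.4 CPM in control islets, 49.5, 48.2, 49.3 and 46.5 with IL-1β, 39.8, 40.2, 42.6 and 42.3 with IL-1β and butyrate, and 39.0, 38.4, 36.2 and 37.5 with butyrate. It did not move with IL-1β beyond its error (0.02 ± 0.045, FDR 0.81) and was lowered by butyrate alone (-0.34 ± 0.046, FDR 2.3e-06) and with IL-1β (-0.23 ± 0.045, FDR 0.00028).

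Of the 31 genes for constitutive subunits of the 20S core and the 19S cap, edgeR called 0 with IL-1β, with 8 at an unadjusted p under 0.05 and 28 above 0 (median 0.07, range -0.04 to 0.24). Over all 44 other proteasome genes the unadjusted p was under 0.05 for 13, and DESeq2 called 0. The unadjusted p was also under 0.05 for 6675 of all 18587 genes tested, so such values were common in this comparison. The summed level of the 31 genes was 2620, 2620, 2450 and 2430 CPM in control replicates 1 to 4 and 2780, 2860, 2520 and 2430 CPM with IL-1β. IL-1β replicate 2 held the highest value of its group for 23 of the 31 genes and replicate 4 the lowest for 24. Without IL-1β replicate 4, 5 of the 44 genes were called as raised, and 2 without IL-1β replicate 3, 1 without combined replicate 2 and 1 without butyrate replicate 1. Scaling by library size alone called 13 as raised, and upper-quartile scaling called 1 as lowered. The replicate number as a block called 5 as raised. Leaving out the filter on low counts called 4, and so did an adjusted p under 0.05. Among all genes tested, scaling by library size alone called 2798 as raised, where the fit given here called 2087.

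Added to IL-1β, butyrate lowered 9 of the 44 other genes and raised none, and 41 were below 0 (median -0.14, against 0.01 for all genes tested). The share lowered was 20.5%, against 11.1% of all genes tested, and for this and the shares below no difference from all genes was tested. The 9 are 7 of the 31 constitutive subunits (*Psma4*, *Psma5*, *Psma7*, *Psmb7*, *Psmd6*, *Psmd7* and *Psmd8*), together with *Psme4* and *Psmf1*. *Psmd6*, a non-ATPase subunit of the 19S lid, fell most. It had 146, 131, 117 and 120 CPM in control islets, 147, 143, 129 and 119 with IL-1β, 97.4, 104, 92.7 and 92.5 with IL-1β and butyrate, and 101, 98.6, 102 and 91.0 with butyrate. The change was -0.47 ± 0.068 in the presence of IL-1β (FDR 1.3e-05) and -0.39 ± 0.069 without it (FDR 0.00012), with no overlap in either case. The alpha ring genes *Psma4* and *Psma5* followed, at -0.30 ± 0.067 (FDR 0.0012) and -0.27 ± 0.073 (FDR 0.0065), both with overlapping groups. The call of *Psma5* was lost with upper-quartile scaling and without any of IL-1β replicate 1 (FDR 0.018) or 2 (0.031), or combined replicate 1 (0.012), 3 (0.013) or 4 (0.016), in a range of 6.6e-05 to 0.031 over the alternatives. The count of 9 was 5 without IL-1β replicate 2, 5 without combined replicate 3 and 19 without IL-1β replicate 4. It was 3 with upper-quartile scaling and higher than 9 with the replicate number as a block. DESeq2 lowered 11 and raised 0, and 25 of the 44 genes had an unadjusted p under 0.05. So did 7409 of all 18587 genes tested.

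**Figure D4:**
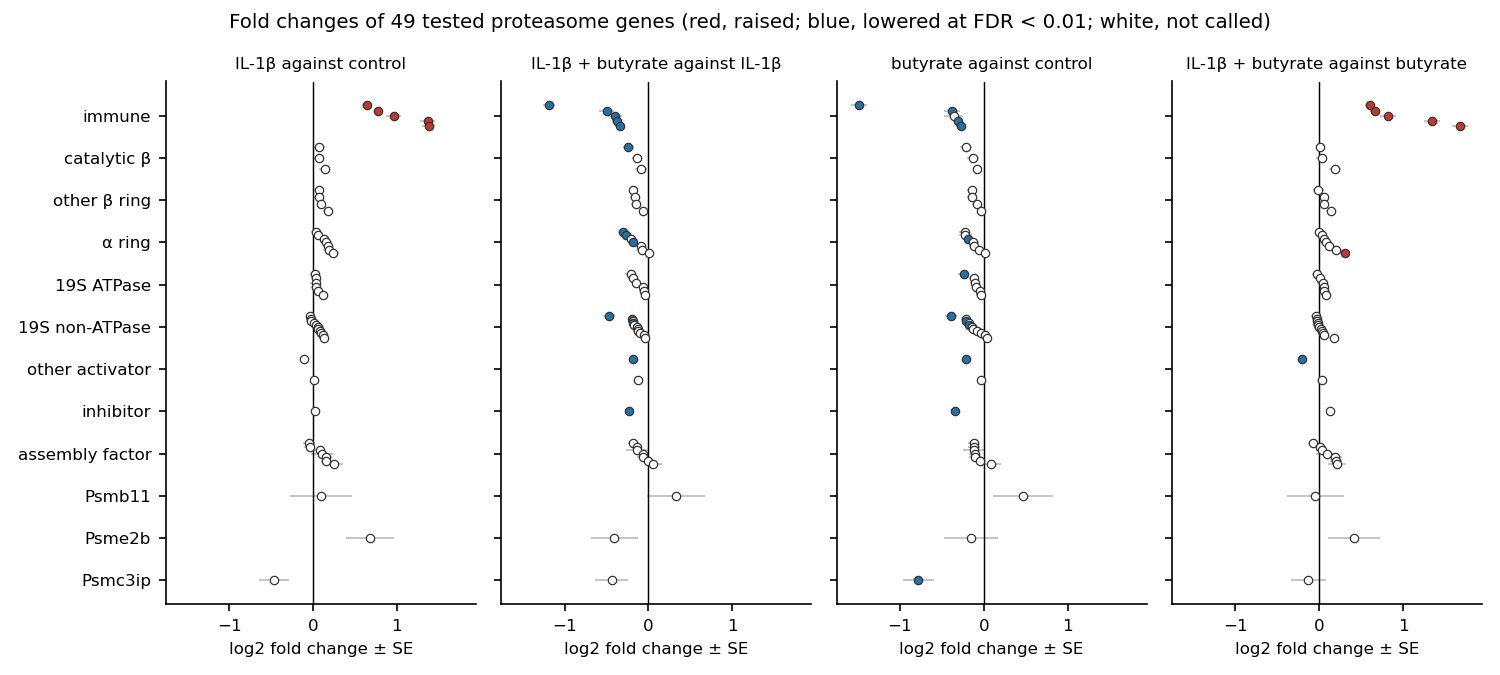
Log2 fold change with its SE (horizontal axis) of the 49 tested proteasome genes, by role (vertical axis), in 4 comparisons, where a point is a gene, red marks a raised and blue a lowered gene at an FDR under 0.01, and white marks genes not called. The immune genes lie between 0.64 and 1.38 with IL-1β, where the other subunits gather near 0, and *Psmb10* stands apart at -1.49 with butyrate alone.

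Butyrate alone lowered 8 of the 44 genes and raised none (median -0.12, with 39 below 0, and 0.01 for all genes tested), a share of 18.2% where 11.4% of all genes tested were lowered. Of these, 5 were constitutive subunits: *Psma7* (-0.19 ± 0.049, FDR 0.0048), *Psmc3* (-0.24 ± 0.067, FDR 0.0092), *Psmd11*, *Psmd6* and *Psmd8*. The others were *Psmc3ip*, *Psme4* and *Psmf1*. *Psmc3ip* had the largest fitted fall at low counts, from 1.87, 2.54, 3.25 and 2.83 CPM in control islets to 1.61, 1.51, 1.72 and 1.29 CPM (-0.78 ± 0.19, FDR 0.0025). Its call was lost without control replicate 3 (FDR 0.016) or butyrate replicate 4 (FDR 0.014), with 0.00045 as the lowest FDR of the alternatives, and 21.2% of its exon length is shared with *Mlx* on the opposite strand. The count of 8 was 4 without control replicate 1 and 5 without control replicate 2 or 3. It was 5 without butyrate replicate 2 and 4 without butyrate replicate 4. Upper-quartile scaling gave 3, and library-size scaling and the replicate number as a block gave 16 each. By DESeq2 8 were lowered and 0 raised. The unadjusted p was under 0.05 for 18 of the 44 genes, and for 7175 of all 18587 genes tested.

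With IL-1β and butyrate against control, 9 of the 44 genes were lowered and none was raised (median -0.05, with 33 below 0), a share of 20.5% lowered where 14.8% of all genes tested were. The 5 constitutive subunits among them were all of the 19S cap: *Psmd1* (-0.22 ± 0.056, FDR 0.0019), *Psmd11*, *Psmd2*, *Psmd6* (-0.41 ± 0.068, FDR 3.3e-05) and *Psmd8*. No alpha ring, beta ring or ATPase gene was called. *Psmc3ip* was at -0.91 ± 0.19 (FDR 0.00031). The count of 9 was 5 without control replicate 1 and 5 without combined replicate 4, and DESeq2 lowered 9 and raised 0. An unadjusted p under 0.05 was found for 17 of the 44, and for 8595 of all 18587 genes tested. Against butyrate alone, only *Psma6* was raised and only *Psme3* lowered among the 44. *Psma6*, an alpha ring subunit, had 72.0, 72.7, 68.1 and 66.7 CPM in control islets, 83.4, 88.6, 73.0 and 72.6 with IL-1β, 78.0, 86.5, 77.4 and 76.8 with IL-1β and butyrate, and 66.4, 68.0, 61.4 and 61.4 with butyrate. All libraries with IL-1β and butyrate were above all with butyrate (0.31 ± 0.059, FDR 0.00024). Without IL-1β replicate 2 or butyrate replicate 1, 2 genes were called as raised, and scaling by library size alone raised 15. Among all genes tested, that scaling raised 3153, where the fit given here raised 1844.

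**Figure D5:**
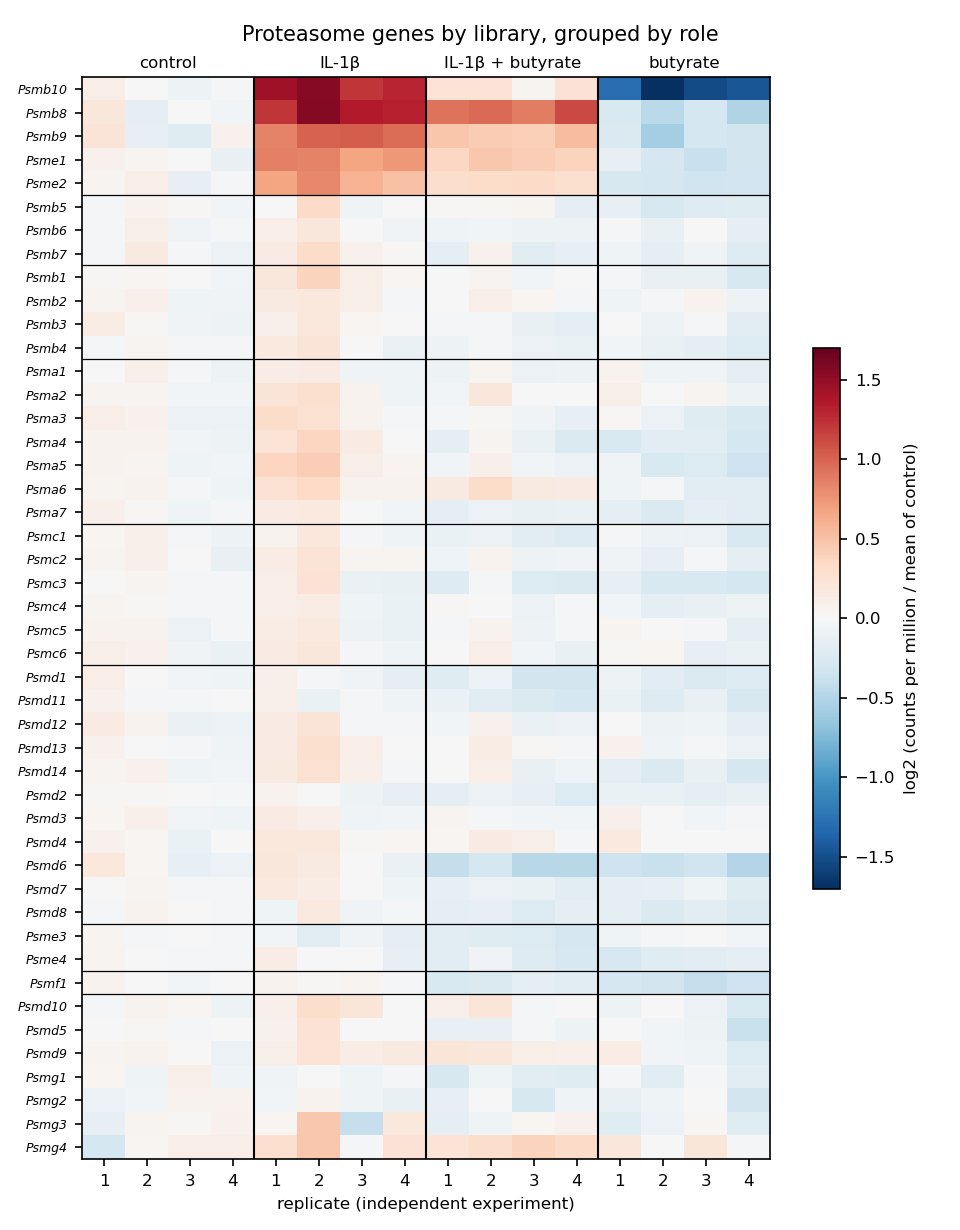
Log2 of CPM over the mean of the control libraries (colour) for 46 tested proteasome genes (rows, grouped by role, with *Psmb11*, *Psme2b* and *Psmc3ip* left out) in the 16 libraries (columns, by condition and replicate). The 5 immune genes at the top are red in all IL-1β libraries and pale to red with IL-1β and butyrate. Among them *Psmb10* is blue with butyrate alone. Of the rows under them, *Psmd6* and *Psmf1* are blue with butyrate. Some others are also off 0, such as *Psma5*, which is pale red in IL-1β replicates 1 and 2.

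The 7 assembly factors are *Psmd5*, *Psmd9* and *Psmd10* for the 19S base and *Psmg1* to *Psmg4* for the 20S rings. None was called in any comparison. Of all genes tested, 4.86% to 15.8% were called in a direction between conditions, so 0 of 7 says little about these genes. Their medians were 0.11 with IL-1β, -0.07 for butyrate in the presence of IL-1β and -0.11 for butyrate alone. The unadjusted p was under 0.05 for 2, 2 and 0 of the 7 in the same order. *Psmb11*, the thymus form of the chymotrypsin-like subunit, had 3 to 13 counts in a library. *Psme2b*, a retrocopy that resembles *Psme2* and can share its reads, had 10 to 35 counts and an uncalled difference of 0.68 ± 0.29 with IL-1β (FDR 0.086).

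Of 24 further genes of the proteasome pathway, 23 were tested, and their members moved in differing directions. IL-1β raised *Pomp*, the chaperone of 20S maturation (0.38 ± 0.061, FDR 2.7e-05), *Nfe2l2*, a regulator of stress genes (0.61 ± 0.091, FDR 5.2e-05), and the ubiquitin ligase gene *Ube3c* (0.25 ± 0.042, FDR 3.4e-05), and it lowered the deubiquitinase gene *Uchl5* (-0.24 ± 0.069, FDR 0.0095). The median of the list was 0.03, and the raised share of 13% was near the 11.2% of all genes. In the presence of IL-1β, butyrate lowered *Pomp* again (-0.34 ± 0.061, FDR 0.00011), with *Usp14*, *Ecpas* and *Zfand5*, and raised *Ddi2* (0.33 ± 0.055, FDR 5e-05), *Nfe2l1* (0.25 ± 0.040, FDR 3.4e-05), *Ube3c* and *Rad23b* among others, 4 lowered and 5 raised in all (median -0.11), which is 17.4% and 21.7% where all genes gave 11.1% and 8.41%. *Ddi2* encodes the protease that activates the product of *Nfe2l1*, a transcription factor for proteasome subunits, and both were also raised by butyrate alone (0.33 ± 0.055 with FDR 3.3e-05, and 0.17 ± 0.040 with FDR 0.0021). Butyrate alone raised 3 and lowered 6 of the 23 (13% and 26.1%, against 8.53% and 11.4% of all genes), *Pomp* among the latter (-0.22 ± 0.062, FDR 0.0089). With IL-1β and butyrate 4 were raised and 5 lowered against control (17.4% and 21.7%, against 15.8% and 14.8% of all genes), and 4 were raised and 0 lowered against butyrate, where 9.92% and 4.86% of all genes were.

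Of 17 genes for transcription factors and antigen-presentation partners of the immune subunits, IL-1β raised 14, or 82.4%, and lowered none (median 0.74), where 11.2% of all genes tested were raised. *Irf1*, a transcription factor known to drive immune subunits, was at 0.74 ± 0.045 (FDR 4.9e-13) and *Nlrc5*, the activator of MHC class I genes, at 1.89 ± 0.22 (FDR 1.2e-07). *Tap1*, the transporter gene between *Psmb9* and *Psmb8*, was not called (0.23 ± 0.084, FDR 0.047), whereas *Tap2* beside them was raised (0.64 ± 0.062, FDR 5.2e-09). In the presence of IL-1β, butyrate lowered 5 of the 17, 29.4% against 11.1% of all genes (*B2m*, *Relb*, *Erap1*, *Tapbp* and *Nfkb2*) and raised none, with *Irf1* at -0.08 ± 0.044 (FDR 0.16) and *Nlrc5* at 0.10 ± 0.18 (FDR 0.71). Butyrate alone lowered *Irf1* (-0.24 ± 0.047, FDR 0.0003), *Erap1* and *Tapbp* and raised *Stat3*. These were 17.6% lowered and 5.88% raised, where all genes gave 11.4% and 8.53%. Against control 13 were raised with IL-1β and butyrate (76.5%, and 15.8% of all genes), and against butyrate 16 (94.1%, and 9.92% of all genes).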

How the data were processed

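RNA from 16 libraries of mouse islets was sequenced by the authors, who mapped single-end reads with STAR 2.5.3a to GRCm38 and counted reads per gene. The deposited values are these raw counts, 1 column per library. The annotation release, the strand setting and filters are not given in the sources used here. Positions and exon overlaps were taken from GENCODE M21, which held 52489 of the 52636 identifiers, and promoter windows from RefSeq. In R 4.3.3, edgeR 4.0.16 (filterByExpr, TMM, robust quasi-likelihood) fitted 1 model of the 4 conditions to all libraries, the call being a Benjamini-Hochberg adjusted p under 0.01 over 18587 genes. The step was tested on simulated data. Alternatives were DESeq2 1.42.0, other scalings, no filter, an adjusted p under 0.05, the replicate number as a block and leaving out each library.

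The members and lists were chosen with earlier results of these data known. Given in full were the immune genes, their counterparts *Psmb5*, *Psmb6* and *Psmb7*, and *Psme3*, and per comparison up to 3 risers and 3 fallers with the largest size among other called genes. Others appear by count or, among called genes and list members, by name. Totals of 18635943 to 25955943 counts set the counting error, and without molecular identifiers copies of a molecule could not be told apart.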

Additional observations from a re-analysis of the deposited data

Results flagged for a closer look

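In 48 groups of 4 libraries (12 genes in 4 conditions), 4 libraries stood far from the other 3 by Dixon's ratio of gap to range, and chance flags about 1 in 20 groups. All 4 are in the condition with IL-1β and butyrate. *Psmb10* was lowest in replicate 3, at 13.7 CPM against 15.5 to 15.7 in the other libraries. *Psmb5* was lowest in replicate 4, at 26.7 CPM against 30.3 to 30.9. In replicate 2, *Psmb7* was highest at 47.4 CPM against 39.7 to 40.9, and *Psma6* was highest at 86.5 CPM against 76.8 to 78.0. Replicate 2 of this condition also held the highest value of its group for 27 of the 31 constitutive subunits.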

How the results depend on the processing

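For the 5 immune genes the calls with IL-1β, with butyrate added to IL-1β and with IL-1β added to butyrate held under all alternatives, and no called fold change of the genes given in full changed sign. The counts of the 44 other genes depended on the setting, where the main counts are those of the report. Raised with IL-1β were 13 genes with scaling by library size alone, 4 without the filter, 5 with the replicate block, 4 at an adjusted p under 0.05 and 0 to 5 without a library, and 1 was lowered with upper-quartile scaling. Lowered by butyrate in the presence of IL-1β were 3 with upper-quartile scaling, 14 without the filter, 17 with the block, 21 at an adjusted p under 0.05 and 5 to 19 without a library. Lowered by butyrate alone were 3 with upper-quartile scaling, 16 with library size alone, 13 without the filter, 16 with the block, 15 at an adjusted p under 0.05 and 4 to 11 without a library. With IL-1β and butyrate against control, 1, 3, 1, 1 and 2 were raised with upper-quartile scaling, library size alone, no filter, the block and an adjusted p under 0.05, and 0 to 1 without a library. Lowered there were 3 with library size alone, 14 at an adjusted p under 0.05 and 5 to 11 without a library. Against butyrate, 15, 4, 4 and 4 were raised with library size alone, no filter, the block and an adjusted p under 0.05, and 1 to 2 without a library, while 0 were lowered with library size alone or no filter. Counts over all genes tested moved with the setting as well. Raised with IL-1β were 2087 in the fit given here, 2798 with library size alone and 2586 with the block. Lowered by butyrate in the presence of IL-1β were 2066 in that fit, 1566 with upper-quartile scaling and 2857 with the block. Lowered by butyrate alone were 2112 in that fit, 1566 with upper-quartile scaling, 2488 with library size alone and 2774 with the block. The cause was not tested. Per kilobase of coding sequence the control ratios were -2.13 for *Psmb8* to *Psmb5*, -3.69 for *Psmb9* to *Psmb6* and -1.74 for *Psmb10* to *Psmb7*.

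The labels number the replicates alike, but the fit given here did not take the numbers as pairs. No source used here states that a number marks one experiment across the conditions. Not every correlation passed 0.1, which does not show that the libraries were unpaired. The study used paired tests for its islet qPCR and names no pairing for the sequencing. Over 24 pairs of same-numbered libraries, the correlation of their deviations ran from 0.05 to 0.40 (median 0.12), with 17 over 0.1. Pairs of differently numbered libraries had a median of -0.04, and 13 of 16 libraries correlated best with their own number. The sample order in the column names runs through the 4 conditions within each number. If a number does mark one experiment, the fit without the block ignores that pairing. With the replicate block, *Psmb9* was called for butyrate alone (-0.36, FDR 0.0076), and the counts with the block above were higher than without it for genes raised with IL-1β and for those lowered by butyrate.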

Other observations

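Other cell type markers in the same libraries, given as values. Of 8 beta cell genes, IL-1β lowered 7, or 87.5% against 6.59% of all genes tested, and raised *Iapp* (median -0.57). *Ins1* and *Mafa* were lower still when butyrate was added, 25% of the list against 11.1% of all genes. Of 4 duct genes, IL-1β raised *Krt7* and *Spp1*, 50% where 11.2% of all genes were raised, and *Krt19* and *Sox9* were not called. The summed level of the list was 340 to 367 CPM in control libraries and 499 to 597 CPM with IL-1β. Most of that rise was *Spp1*, with a mean of 11.9 CPM in control islets and 158 CPM with IL-1β, while the mean of *Sox9* was 2.04 and 1.81 CPM. Endothelial genes summed to 11.9 to 13.4 CPM in control libraries and to 18.5 to 23.2 CPM with IL-1β and butyrate. *Egfl7* and *Pecam1* were raised there, 33.3% of the 6 tested against 15.8% of all genes, and no other tested gene of the list was called. The largest part of the rise was *Egfl7*, with a mean of 1.05 CPM in control islets and 5.45 CPM with IL-1β and butyrate. *Egfl7* was also raised by butyrate alone. Means in the same order were 8.03 and 10.2 CPM for *Esam*, 0.378 and 0.39 CPM for *Kdr*, and 0.53 and 0.587 CPM for *Plvap*. *Sst*, the delta cell hormone gene, was raised by butyrate with and without IL-1β.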
